A study of Rattus norvegicus with 6 samples.

Results

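Galectins are small proteins that bind beta-galactoside sugars on glycoproteins and glycolipids, and the genes described here are the galectin family of the rat liver together with the gene of a secreted galectin ligand. The members were chosen by gene symbol in the deposited expression table, and they were Lgals1, Lgals2, Lgals3, Lgals3bp, Lgals4, Lgals5, Lgals8 and Lgals9. These were 8 of the 19616 genes in the table, and 7 of them passed the filter on low values described below.

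Galectins fall into prototype forms with a lone sugar-binding domain, tandem-repeat forms with a pair of different domains on one chain, and the chimera form galectin-3, whose long tail lets it assemble into larger complexes. They are made in the cytosol and leave the cell without a signal peptide, and outside the cell they cross-link branched glycans that carry lactosamine. In the liver, galectin-3 is known as a product of macrophages and of activated stellate cells, the cells that lay down scar matrix, and galectin-9 as a product of Kupffer cells, the resident macrophages.

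RNA of whole liver from male Sprague-Dawley rats was measured by RNA-seq after removal of ribosomal RNA, with 1 library per rat. The FL group consisted of 3 rats (FL2, FL5 and FL12) with hepatic fibrosis induced by CCl4, a solvent that injures hepatocytes. They had received CCl4 mixed with an equal volume of olive oil, at 2 mL/kg into the peritoneum, 2 times a week for 5 weeks. The CL group consisted of 3 rats (CL5, CL6 and CL7) that had received the same volume of olive oil over the same time. All rats were of the same strain, no genetic alteration was named, and their age was not given in the sources used here. The replicates were separate rats. The p-values rest on the spread between animals, combined with the spread of all genes at a similar level.

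Levels are given as FPKM, in which the fragments of a gene are scaled to the length of its transcript and to the size of the library, so that genes of different length can be compared within a rat. Values of individual rats stand in the order CL5, CL6, CL7 for the CL rats and FL2, FL5, FL12 for the FL rats. The FPKM of all genes summed to 309425, 340467 and 315259 in the CL rats and to 309226, 272350 and 272110 in the FL rats. The paper's text gives a lower limit for the number of clean reads but no total for each rat. Read totals of individual rats were not used here, so the depth behind a value is given only relative to other rats. The most frequent value above 0 among the genes of U6, a short RNA with many near-identical copies, gave the depth relative to CL5, which was 0.656 in CL6, 0.84 in CL7, 0.677 in FL2, 0.75 in FL5 and 0.677 in FL12. The 10 highest genes took 31.5%, 36.7% and 35.3% of the sum in the CL group and 25.6%, 23.9% and 23.6% in the FL group. The tissue label was checked against 8 hepatocyte markers, which were present in every rat. Their summed level was 52518, 49937 and 50533 FPKM in the CL rats and 45056, 44039 and 43160 FPKM in the FL rats. Alb, the gene of serum albumin, was the highest of them, and 0 of the 8 were called in the limma test between the groups described below, with 1 higher and 0 lower at an unadjusted p under 0.05. That test had wide errors for genes of this level (SE 0.98 on the log2 scale for Alb), so the count of 0 says nothing about their stability. The groups did not overlap for 4 markers that were lower in the FL rats, Alb among them, and for 2 that were higher. With a prior variance that does not follow the mean, 1 was called higher and 0 lower.

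Fibrotic liver (FL) was compared with control liver (CL) to ask which galectins differ between them. The tool limma was run on log2(FPKM + 0.1) over 14864 genes whose mean reached 0.1 FPKM, so that fold changes of low genes are understated, and a gene was called at an adjusted p under 0.05. Of the 7 members tested, 4 were called higher in the FL group (Lgals1, Lgals2, Lgals3 and Lgals3bp), 0 were called lower and 3 were not called (Lgals5, Lgals8 and Lgals9). Among all genes tested, 16.9% were called higher and 1.94% lower. At an unadjusted p under 0.05, limma also gave 4 members higher and 0 lower, against 31.5% and 4.04% of all genes. All 4 members called higher also changed at least 2-fold, against 9.29% of all genes. The 3 FL rats lay above the 3 CL rats in the same 4 members, against 35.7% of all genes, and below them in 0 members, against 4.78% of all genes. The members were chosen with earlier results of these data known, so these counts are descriptions only.

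The median log2 fold change of the 7 members was 1.48. That of all genes tested was 0.29, so the deposited values lay higher in the FL group for the middle gene as well. This shift became 0.079 after median scaling and -0.045 after quantile normalization, and changes relative to it are given for each called member. The split of calls over all genes followed the scaling, with 2518 higher and 288 lower as deposited, 1301 and 533 after median scaling, and 778 and 536 after quantile normalization. The number of genes called higher was 1285 without CL5, 1308 without CL6, 904 without CL7, 898 without FL5 and 1284 without FL12, but 3190 without FL2. The number called lower was 153, 118, 121, 168, 174 and 337 without the same rats in the same order. The same 4 members were called higher under all 3 scalings.

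**Figure D1:**
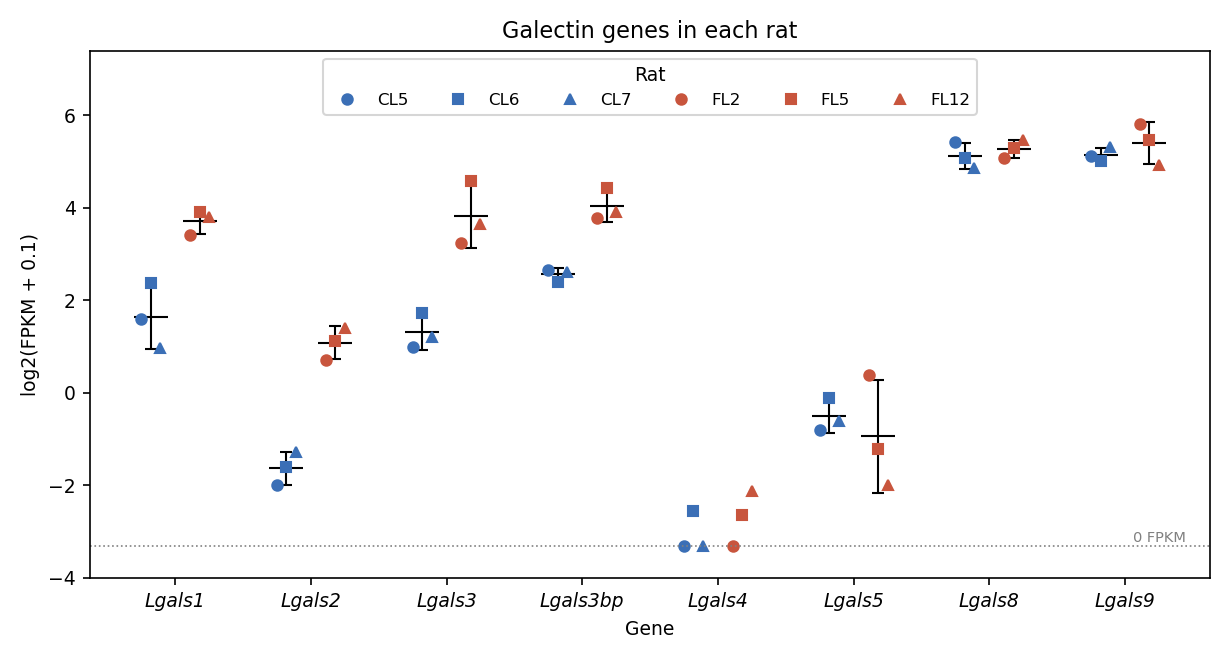
Level of the 8 galectin family genes as log2(FPKM + 0.1) in each of the 6 rats, with a point for each rat and with lines for the group mean and SD, left out for Lgals4 because some of its values are 0. The FL rats lie above every CL rat for Lgals1, Lgals2, Lgals3 and Lgals3bp, and the groups overlap for the others.

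Among the prototype galectins, Lgals1 encodes galectin-1, which forms dimers and is abundant in mesenchymal cells. Its level (ENSRNOG00000009884, chromosome 7) was 2.95, 5.10 and 1.85 FPKM in the CL rats and 10.52, 14.94 and 13.86 FPKM in the FL rats. The lowest FL rat, FL2, stood above the highest CL rat, CL6, and the spread relative to the mean was wider in the CL than in the FL rats. The mean rose from 3.30 ± 1.65 FPKM in the CL group to 13.1 ± 2.30 FPKM in the FL group (SD, n = 3). The log2 fold change was 2.06 (SE 0.33, 95% confidence interval 1.30 to 2.81, adjusted p = 0.0072), or 1.77 relative to the median of all genes. In these whole-liver samples, more cells of a type and more RNA per cell cannot be told apart, and the same holds for fewer cells and less RNA per cell.

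Lgals2 encodes galectin-2, a prototype galectin known mainly from the epithelium of the digestive tract. Its level (ENSRNOG00000008539, chromosome 7) was 0.15, 0.23 and 0.31 FPKM in the CL rats and 1.53, 2.09 and 2.56 FPKM in the FL rats. Every FL rat stood well above every CL rat, although the CL values lay close to the filter on low values. The mean rose from 0.23 ± 0.08 to 2.06 ± 0.516 FPKM. The log2 fold change was 2.71 (SE 0.29, 95% confidence interval 2.04 to 3.39, adjusted p = 0.00258), or 2.42 relative to the median of all genes. With a pseudocount of 1 it was 1.30, and the adjusted p ranged from 0.0024 to 0.0198 over the alternatives.

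Lgals5 encodes galectin-5, a prototype galectin of the rat that is known from erythrocytes and their precursors. Its level (ENSRNOG00000012557, chromosome 10) was 0.47, 0.83 and 0.56 FPKM in the CL rats and 1.21, 0.33 and 0.15 FPKM in the FL rats. FL2 was the highest of all rats and FL5 and FL12 were the lowest, so the FL rats lay on both sides of the CL group. The means were 0.62 ± 0.187 and 0.563 ± 0.567 FPKM, with a log2 fold change of -0.44 (SE 0.57, 95% confidence interval -1.76 to 0.88, adjusted p = 0.611). This value moved with single rats and with the processing. It was -1.10 without FL2 (adjusted p = 0.075) and 0.091 without FL12 (adjusted p = 0.923), and these were the lowest and the highest adjusted p among its alternatives. The log2 fold change was also -0.24 without CL6, -0.10 with a pseudocount of 1 and -0.995 after quantile normalization.

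As for Lgals5, FL2 was the highest FL rat for the summed erythroid markers. Their 9 genes in the table summed to 88.06, 154.54 and 110.43 FPKM in the CL rats and to 122.63, 46.89 and 49.56 FPKM in the FL rats. FL2 lay within the range of the CL group, and FL5 and FL12 lay below it. Most of the sum came from the globin genes Hbb and Hba1, whereas Slc4a1, Epb42 and Klf1 were highest in FL12 among the FL rats. Hba1, Slc4a1, Epb42 and Klf1 are named after their values were seen. Hbb was the highest of the list, none of the 9 was at 0 in every rat, and 0 of the 6 tested were called by limma, with 1 lower at an unadjusted p under 0.05. Their part in the values of Lgals5 was not tested.

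Lgals3 encodes galectin-3, the chimera-type galectin. Its level (ENSRNOG00000010645, chromosome 15) was 1.88, 3.23 and 2.21 FPKM in the CL rats and 9.29, 24.01 and 12.52 FPKM in the FL rats. All FL rats exceeded all CL rats, and FL5 stood apart from the other FL rats. The mean rose from 2.44 ± 0.704 to 15.3 ± 7.74 FPKM. The log2 fold change was 2.52 (SE 0.34, 95% confidence interval 1.73 to 3.31, adjusted p = 0.0049), or 2.23 relative to the median of all genes.

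Lgals3bp does not encode a galectin but a secreted glycoprotein of the scavenger receptor cysteine-rich group, which galectin-3 binds through its glycans. Its level (ENSRNOG00000003217, chromosome 10) was 6.22, 5.21 and 6.06 FPKM in the CL rats and 13.69, 21.64 and 14.88 FPKM in the FL rats. The CL rats lay close together, the FL rats lay above them, and FL5 was again the highest. The mean rose from 5.83 ± 0.543 to 16.7 ± 4.29 FPKM. The log2 fold change was 1.48 (SE 0.18, 95% confidence interval 1.06 to 1.90, adjusted p = 0.00414), or 1.19 relative to the median of all genes.

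The tandem-repeat galectins were Lgals4, Lgals8 and Lgals9, and none of them was called. Lgals4 encodes galectin-4, which is known from the epithelium of the intestine. It (ENSRNOG00000020338, chromosome 1) was listed at 0 in CL5, CL7 and FL2, at 0.07 FPKM in CL6, at 0.06 FPKM in FL5 and at 0.13 FPKM in FL12. The mean was below the filter, so Lgals4 was not tested. Some genes that most cells use were listed near 0 as well, such as the kinase gene Map3k7 at 0.02 to 0.09 FPKM, so no absence is read from these values. Map3k7 was chosen for this after its values were seen.

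Lgals8 encodes galectin-8, which marks damaged lysosomes and phagosomes from the cytosolic side. Its level (ENSRNOG00000018046, chromosome 17) was 42.8, 33.56 and 29.14 FPKM in the CL rats and 33.8, 39.14 and 43.9 FPKM in the FL rats. The rats of both groups were interleaved over nearly the same range. The means were 35.2 ± 6.97 and 38.9 ± 5.05 FPKM, with a log2 fold change of 0.16 (SE 0.17, 95% confidence interval -0.23 to 0.55, adjusted p = 0.535), which turned to -0.067 after median scaling (adjusted p = 0.812). Leaving out a rat gave log2 fold changes from 0.031 without CL7 to 0.31 without CL5. The adjusted p of Lgals8 ranged from 0.232 to 0.926 over the alternatives.

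Lgals9 encodes galectin-9, a ligand of TIM-3, an inhibitory receptor of T cells, and a gene that interferon gamma is known to induce. Its level (ENSRNOG00000012681, chromosome 10) was 34.52, 32.02 and 39.8 FPKM in the CL rats and 56.51, 44.16 and 30.32 FPKM in the FL rats. FL2 and FL5 lay above the CL rats, but FL12 lay below all of them. The means were 35.4 ± 3.97 and 43.7 ± 13.1 FPKM, with a log2 fold change of 0.26 (SE 0.22, 95% confidence interval -0.24 to 0.76, adjusted p = 0.422). It was 0.052 without FL2 and 0.50 without FL12 (adjusted p = 0.0989), where the adjusted p over all alternatives ranged from 0.0989 to 0.946. After median scaling the log2 fold change was 0.036, and after quantile normalization 0.145. Lgals5 resembles a part of Lgals9 in sequence, and the FPKM come from uniquely placed reads, so reads that fit both genes would be missing from both values, which are uncertain to that extent. With both genes summed, which does not recover such reads, the log2 fold change was 0.25 (adjusted p = 0.445).

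**Figure D2:**
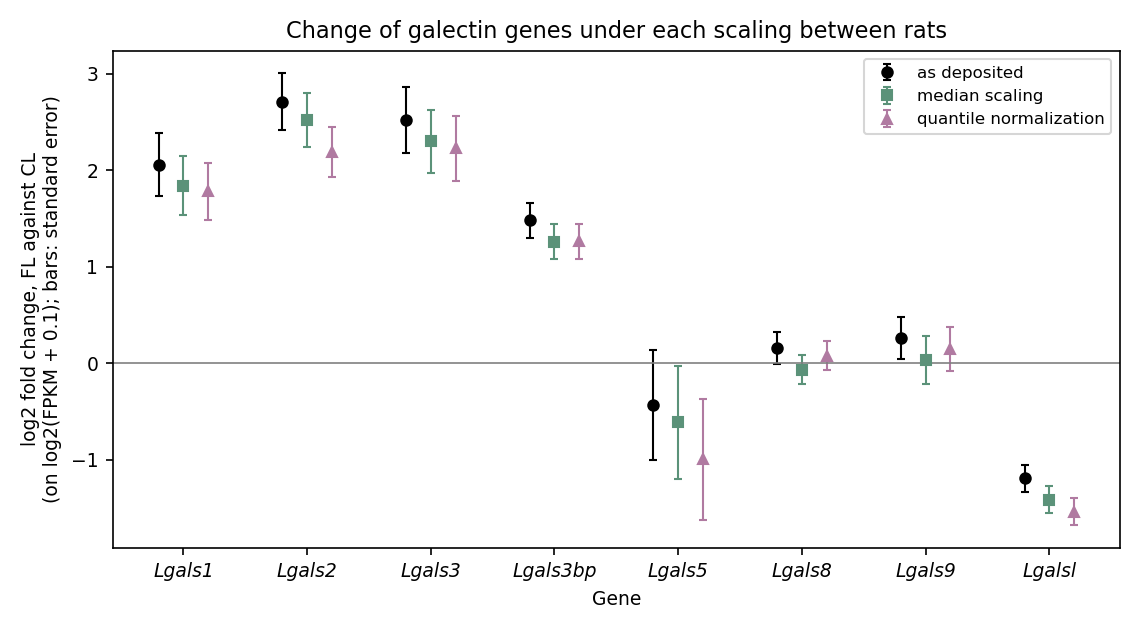
Log2 fold change of the FL against the CL group on log2(FPKM + 0.1) for the 7 members tested and for Lgalsl, with the values as deposited, after median scaling and after quantile normalization, and with bars for the standard error. Lgals1, Lgals2, Lgals3 and Lgals3bp lie above 0 and Lgalsl below 0 under each scaling, whereas Lgals8 lies at 0.16 as deposited and at -0.067 after median scaling.

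The members also differed in which FL rat was lowest. For all 4 called members the lowest FL rat was FL2. For Lgals5 and Lgals9 it was FL12, and FL2 was the highest FL rat. For Lgals8 the lowest FL rat was FL2 and the highest FL12.

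The order of levels within the family was compared in FPKM. In the CL group it ran from Lgals9 and Lgals8, whose ranges overlapped, through Lgals3bp to Lgals1 and Lgals3, whose ranges also overlapped, and then to Lgals5, Lgals2 and Lgals4. In the FL group Lgals9 and Lgals8 were again the highest and overlapped. Lgals3bp, Lgals3 and Lgals1 followed, with overlapping ranges between neighbours. Lgals2 stood above Lgals5 in all 3 FL rats and below it in all 3 CL rats, and Lgals4 was the lowest in both groups.

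The summed level of the 8 members was 88.99, 80.25 and 79.93 FPKM in the CL rats and 126.55, 146.37 and 118.32 FPKM in the FL rats. Lgals8 and Lgals9 together made up 86.9%, 81.7% and 86.3% of this sum in the CL rats and 71.4%, 56.9% and 62.7% in the FL rats. Their share was lower in each FL rat than in any CL rat, with means of 85.0 ± 2.82% and 63.7 ± 7.27%. Without Lgals8 and Lgals9 the sum was 11.67, 14.67 and 10.99 FPKM in the CL rats and 36.24, 63.07 and 44.10 FPKM in the FL rats. These shares and sums are descriptions, and no test was made on them.

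Ratios within a rat were taken from the values as deposited. Median scaling divides all genes of a rat by the same factor and leaves them as they are apart from the pseudocount, whereas quantile normalization can change them. The log2 ratio of Lgals3 to its ligand gene Lgals3bp was -1.67, -0.67 and -1.42 in CL5, CL6 and CL7, and -0.55, 0.15 and -0.25 in FL2, FL5 and FL12. The groups did not overlap, although CL6 and FL2 lay close to each other, and the means were -1.25 ± 0.52 and -0.22 ± 0.35. The log2 ratio of Lgals3 to Lgals1 averaged -0.34 ± 0.51 in the CL group and 0.12 ± 0.49 in the FL group, with overlap. The ratio of Lgals9 to Lgals8 (0.024 ± 0.39 and 0.13 ± 0.64) and that of Lgals9 to Lgals5 (5.65 ± 0.47 and 6.35 ± 0.80) overlapped between the groups as well. The difference between the groups in the ratio of Lgals9 to Lgals5 was 0.70, and it was 0.36 with a pseudocount of 1 and 0.86 with a pseudocount of 0.01.

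Of 6 related genes listed outside the members, 2 had values in the table. Lgalsl encodes the galectin-related protein, which keeps the galectin fold but is not known to bind lactose. Its level (ENSRNOG00000005464, chromosome 14) was 6.21, 6.27 and 7.22 FPKM in the CL rats and 2.66, 3.16 and 2.63 FPKM in the FL rats. Each FL rat lay below each CL rat, with little spread in either group. The log2 fold change was -1.19 (SE 0.14, adjusted p = 0.00339), so Lgalsl fell, by 1.48 relative to the median of all genes. Grifin, a galectin-like gene of the eye lens, was listed at 0 in all rats but FL12, where it was at 0.06 FPKM, and was not tested. Lgals7, Lgals12, Lgals13 and Clc were not analysed here.

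The partners of galectins were read from 4 lists, with 61 of 65 genes in the table and 56 tested. Of these, 20 were called higher (35.7%, against 16.9% of all genes) and 2 lower (3.57%, against 1.94%), and 34 were not called. The lists were chosen with earlier results of these data known, so these shares are descriptions only. The number called higher was 13 without CL6, 10 without CL7, 9 without FL5 and 10 after quantile normalization, but 24 without FL2. In the same fits and order, 1308, 904, 898, 778 and 3190 of all 14864 genes tested were called higher. The number called lower was 0 without CL6, 1 without CL5, CL7 or FL5, and 2 without FL2. By list, 6 of 18 tested genes of glycan branching, 2 of 6 of sialic acid capping, 11 of 20 glycoproteins and 1 of 12 lysosome partners were called higher, and the lists were not tested against each other.

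The list of glycan branching and lactosamine synthesis holds enzymes that build sugar chains on glycoproteins or glycolipids. Which chains each of them builds was not tested, so a call is not read as a rise in lactosamine. Of 18 genes tested, 6 were called higher and 0 lower by limma (7 and 0 at an unadjusted p under 0.05), with a median log2 fold change of 0.49 against 0.29 over all genes. Among all genes, 16.9% were called higher, and 31.5% were higher at an unadjusted p under 0.05. The number called higher was 4 after median scaling and 1 after quantile normalization, against 1301 and 778 of all 14864 genes tested. Of the 6, only B4galt6 kept its call without FL5, where 898 of all genes were called higher. Without CL7, only B4galt5 and B4galt6 did, where 904 of all genes were called higher. B4galt6, a beta-galactosyltransferase, stood at 0.60, 0.63 and 0.60 FPKM in the CL rats and at 1.32, 2.39 and 2.68 FPKM in the FL rats. All FL rats exceeded the tightly grouped CL rats, and B4galt6 rose with a log2 fold change of 1.59 (SE 0.28, adjusted p = 0.00979), or 0.93 with a pseudocount of 1. B4galt5, of the same enzyme group, stood at 1.31, 0.97 and 1.58 FPKM in the CL rats and at 2.59, 3.37 and 4.58 FPKM in the FL rats. The groups did not overlap, and B4galt5 rose with a log2 fold change of 1.37 (SE 0.26, adjusted p = 0.0119). Its adjusted p was 0.0534 without FL5 and 0.0564 after quantile normalization, in a range from 0.00926 to 0.0564. Mgat5 adds the branch that carries the longest lactosamine chains. It stood at 0.88, 0.86 and 0.87 FPKM in the CL rats and at 0.90, 1.84 and 1.81 FPKM in the FL rats. FL2 lay next to the CL rats while FL5 and FL12 lay far above them, and the log2 fold change was 0.67 (SE 0.28, adjusted p = 0.134). It was 0.99 without FL2 (adjusted p = 0.013), 0.40 with a pseudocount of 1, 0.47 after median scaling (adjusted p = 0.283) and 0.15 after quantile normalization (adjusted p = 0.725), and the adjusted p ranged from 0.013 to 0.725 over the alternatives.

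Sialic acid at the end of a lactosamine chain changes which galectins can bind it, and an alpha2,6 link blocks most of them. Of 6 sialyltransferase genes tested, 2 were called higher and 0 lower by limma, as also at an unadjusted p under 0.05, with a median log2 fold change of 0.012. The shares of all genes that were higher by these limits were 16.9% and 31.5%. The chains on which each enzyme acts were not tested, so these calls are not read as capping of lactosamine. St6gal1, which makes the alpha2,6 link, stood at 97.22, 97.07 and 104.38 FPKM in the CL rats and at 138.66, 71.97 and 82.04 FPKM in the FL rats. FL2 was above the CL rats and the other FL rats were below them, and the log2 fold change was -0.089 (SE 0.23, adjusted p = 0.808). Its direction rested on individual rats, with -0.37 without FL2 (adjusted p = 0.0624), 0.10 without FL5 and 0.0058 without FL12, and it was -0.31 after median scaling, in a range of adjusted p from 0.0624 to 0.991. St3gal4, which makes an alpha2,3 link, stood at 5.06, 4.54 and 5.13 FPKM in the CL rats and at 8.37, 7.17 and 8.39 FPKM in the FL rats. It rose without overlap between the groups, with a log2 fold change of 0.69 (SE 0.13, adjusted p = 0.0112). After median scaling the value was 0.47 (adjusted p = 0.0607) and after quantile normalization 0.41 (adjusted p = 0.107), in a range of adjusted p from 0.00827 to 0.107. St3gal2, another alpha2,3 enzyme, stood at 1.24, 1.43 and 1.47 FPKM in the CL rats and at 2.23, 3.31 and 4.21 FPKM in the FL rats. The groups lay apart, and St3gal2 rose with a log2 fold change of 1.14 (SE 0.24, adjusted p = 0.017). This call was lost when any rat but FL2 was left out. The adjusted p was then 0.0603 without CL5, 0.0517 without CL6, 0.0584 without CL7, 0.0715 without FL5 and 0.0528 without FL12, and it was 0.0746 after quantile normalization, where the log2 fold change was 0.71, in a range from 0.00573 to 0.0746.

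The surface and matrix glycoproteins that galectins bind held 20 tested genes, of which 11 were called higher and 1 lower, with a median log2 fold change of 0.80. Over all genes, 16.9% were called higher and 1.94% lower. After median scaling 10 genes of the list were called higher and 1 lower, and after quantile normalization 9 and 1. Of all 14864 genes tested, 1301 were called higher and 533 lower after median scaling, and 778 and 536 after quantile normalization. Itgb1, Lamb1, Tlr4 and Nrp1, named for this reason, lost their calls without CL7 and also without FL5. Trem2, a lipid receptor of macrophages, stood at 0.06, 0.12 and 0.07 FPKM in the CL rats and at 2.30, 5.32 and 4.76 FPKM in the FL rats. The CL rats were near 0 and all FL rats were far above them, and Trem2 rose with a log2 fold change of 4.46 (SE 0.35, adjusted p = 0.00102). With a pseudocount of 1 the value was 2.19, and with a pseudocount of 0.01 it was 5.43. The mean of the CL rats, 0.083 FPKM, lay below the filter, which Trem2 passed only through the FL rats. The size of its change therefore depends on the pseudocount. Ptprc, the gene of the leukocyte antigen CD45, stood at 3.19, 3.25 and 3.12 FPKM in the CL rats and at 8.12, 10.19 and 8.72 FPKM in the FL rats. Both groups were narrow and far from each other, and Ptprc rose with a log2 fold change of 1.46 (SE 0.13, adjusted p = 0.00165). Egfr, a growth factor receptor of hepatocytes, stood at 62.0, 67.7 and 64.57 FPKM in the CL rats and at 50.26, 44.01 and 35.42 FPKM in the FL rats. It fell without overlap, with a log2 fold change of -0.60 (SE 0.15, adjusted p = 0.0294). Its adjusted p was 0.069 without CL5, 0.0926 without CL6, 0.0944 without CL7, 0.0829 without FL5, 0.0641 without FL12 and 0.0628 with a prior variance that does not follow the mean, in a range from 0.0136 to 0.0944. Havcr2, the gene of TIM-3, was at 0.04 to 0.13 FPKM in the 6 rats and was not tested, and it is named for its link to galectin-9.

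Galectin-3, galectin-8 and galectin-9 act with autophagy and repair proteins at damaged lysosomes. Of 12 genes of this group tested, 1 was called higher, 1 lower and 10 were not called, with a median log2 fold change of 0.19. Among all genes, 16.9% were called higher and 1.94% lower. Tfeb, a transcription factor of lysosomal genes, stood at 2.12, 1.52 and 1.59 FPKM in the CL rats and at 3.20, 3.35 and 3.47 FPKM in the FL rats. The FL rats lay close together above the CL rats, and Tfeb rose with a log2 fold change of 0.91 (SE 0.17, adjusted p = 0.0122). The adjusted p was 0.0549 without CL7, 0.0525 without FL5 and 0.105 after quantile normalization, where the log2 fold change was 0.50, in a range from 0.00885 to 0.105. Gabarapl1, a protein of the autophagosome membrane, stood at 80.42, 82.64 and 68.68 FPKM in the CL rats and at 47.52, 53.39 and 43.38 FPKM in the FL rats. It fell without overlap, with a log2 fold change of -0.68 (SE 0.13, adjusted p = 0.0133), and its adjusted p was 0.053 without CL6, in a range from 0.00798 to 0.053.

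**Figure D3:**
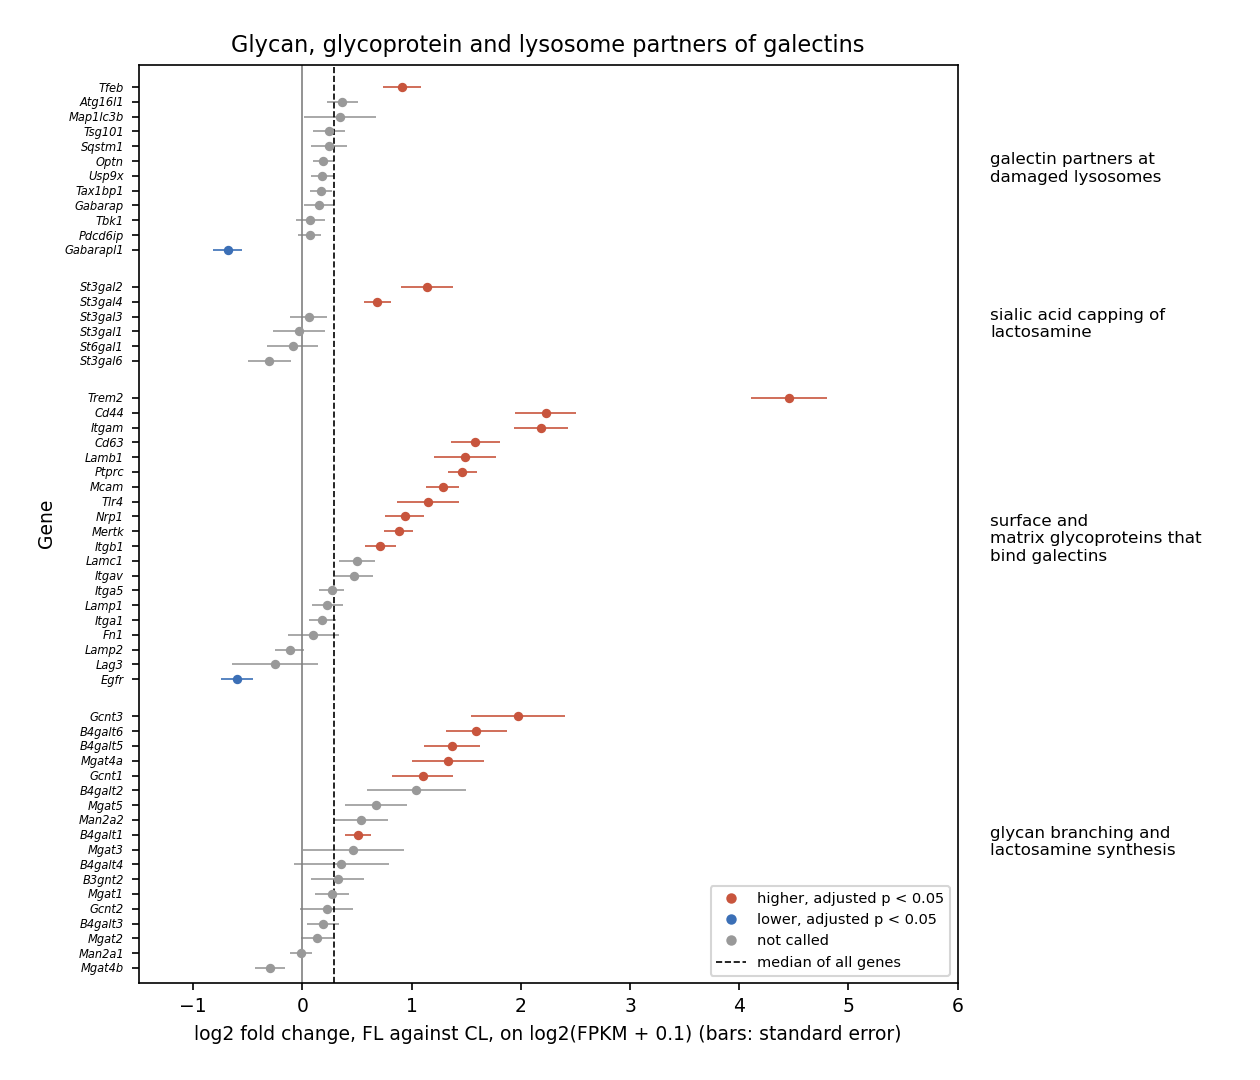
Log2 fold change of the FL against the CL group on log2(FPKM + 0.1) for the 56 partner genes tested, by list, with bars for the standard error, colours for the call and a dashed line at the median of all genes (0.29). Among the 20 genes called higher, 11 are surface and matrix glycoproteins, with Trem2 at 4.46, a size that depends on the pseudocount.

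A part of the markers of several cell types was higher in the FL group, as the 4 called galectin genes were. The highest gene of a list is the one with the highest mean over the 6 rats, and it need not be the highest in each group or among the genes called. The 8 markers of recruited monocytes and scar macrophages summed to 19.08, 17.05 and 12.94 FPKM in the CL rats and to 105.50, 195.83 and 158.01 FPKM in the FL rats. Of these, 6 of 8 were called higher, Gpnmb was the highest, and Trem2 and Itgam also stand in the glycoprotein list. Ccr2 and Fabp5, named for this reason, were not called. Gpnmb alone made up 101 FPKM of the mean sum of 153 FPKM in the FL group. The 9 markers of stellate cells and myofibroblasts summed to 69.49, 75.72 and 68.96 FPKM in the CL rats and to 190.13, 504.70 and 469.46 FPKM in the FL rats. Here 5 of 8 tested were called higher, and Col3a1 was the highest. Acta2, Lrat and Timp1, named for this reason, were not called. Col3a1 alone made up 274 FPKM of the mean sum of 388 FPKM in the FL group. Col1a2, the partner chain of Col1a1, was at 0.01 to 0.18 FPKM and was not tested, and it is named after its values were seen. In the sums of both lists FL2 was the lowest FL rat, as it was for the 4 called galectin genes. The 9 macrophage markers, most of them known from Kupffer cells, summed to 144.21, 131.42 and 140.53 FPKM in the CL rats and to 310.68, 298.00 and 166.71 FPKM in the FL rats. FL12 was the lowest FL rat in this list, as it was for Lgals9, 3 of 9 markers were called higher, and Clec4f, which was not called, was the highest. After median scaling the counts were 6, 5 and 3 in the order given, and after quantile normalization 5, 5 and 3. Of all 14864 genes tested, 2518 (16.9%) were called higher as deposited, 1301 after median scaling and 778 after quantile normalization. None of the markers in these 3 lists was at 0 in every rat, and their part in the result was not tested.

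Further lists held calls for a part of their markers, with shares to be read against the 16.9% of all genes called higher. The 1 of 6 lymphocyte markers did not exceed that background. The 7 neutrophil markers summed to 0.41, 1.07 and 1.26 FPKM in the CL rats and to 5.56, 2.39 and 4.91 FPKM in the FL rats, with 3 of 5 tested called higher, S100a8 the highest, and Mpo and Elane at 0 in every CL rat. The 6 markers of cycling cells summed to 2.67, 5 and 3.23 FPKM in the CL rats and to 4.45, 19.89 and 17.05 FPKM in the FL rats, with 2 of 6 called higher and Mki67 the highest. Every FL rat exceeded the CL rats in the neutrophil sum, whereas in the sum for cycling cells FL5 and FL12 did and FL2, again the lowest FL rat, did not. The 6 endothelial markers in the table summed to 66.89, 67.96 and 60.24 FPKM in the CL rats and to 82.82, 73.89 and 80.36 FPKM in the FL rats, with 2 of 6 called higher and Kdr, which was not called, the highest. The 8 lymphocyte markers summed to 1.55, 1.74 and 2.78 FPKM in the CL rats and to 4.76, 4.86 and 2.41 FPKM in the FL rats, with 1 of 6 tested called higher and Cd79a, which was not called, the highest. Most of these calls were lost under other scalings. After median scaling 1 neutrophil marker, 1 marker of cycling cells, 1 endothelial and 0 lymphocyte markers were called higher, and after quantile normalization 0, 0, 1 and 0. The share of 16.9% holds for the values as deposited. After median scaling 1301 of all 14864 genes tested were called higher, and after quantile normalization 778. Their part in the result was not tested.

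Markers of cholangiocytes, which line the bile ducts of the liver, and of the intestinal epithelium and mesothelium outside it were low and held no call by limma. The 7 cholangiocyte markers summed to 5.55, 7.75 and 5.65 FPKM in the CL rats and to 5.49, 8.18 and 11.64 FPKM in the FL rats, with 0 of 6 tested called (1 higher at an unadjusted p under 0.05) and Epcam the highest. For intestinal epithelium, where Lgals2 and Lgals4 are known to be high, the 6 markers in the table summed to 0.94, 1.09 and 0.85 FPKM in the CL rats and to 1.20, 1.94 and 1.99 FPKM in the FL rats. In that list 0 of 3 tested were called, and 0 passed an unadjusted p of 0.05, and Cdh17 was the highest. The 5 mesothelium markers summed to 3.30, 4.14 and 3.41 FPKM in the CL rats and to 1.01, 1.54 and 5.01 FPKM in the FL rats, with 0 of 5 called (1 higher at an unadjusted p under 0.05) and Msln the highest.

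The genes whose pattern over the 6 rats was most like a member were sought among 10535 genes whose mean reached 1 FPKM. Likeness was the root mean square difference of log2(FPKM + 0.1) after centring each gene on its own mean. For Lgals1 the nearest genes were Hcst (0.131), Tmem86a (0.2) and Art4 (0.235). For Lgals3 they were Hist1h3a (0.183), Clec12a (0.250) and Gpx3 (0.269). For Lgals9 they included Tbc1d14 (0.0911) and Xkr8 (0.1).

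RefSeq promoter windows of the rat build GRCr8 were held for 6 of the 8 members (Lgals2, Lgals3bp, Lgals4, Lgals5, Lgals8 and Lgals9), with 250 bases before and 50 bases after the start of the gene. They were searched on both strands for 4 motifs, and the share of all 33469 windows with the motif is given as background. GAAA followed by any 2 bases and GAAA again, the core of the interferon-stimulated response element, was found in Lgals3bp, Lgals5 and Lgals9, and in 3.92% of all windows. TGANTCA, the AP-1 motif, was found in Lgals9, and in 7.33% of all windows. TATAAA was found in Lgals3bp as a pair of overlapping matches on opposite strands, and in 14.2% of all windows. TTCNNNGAA was found in 0 members and in 8.87% of all windows. A match describes these letters and shows no binding.

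The windows of Lgals5 and Lgals9, which both lie on chromosome 10, could be aligned over most of their length, although the level of Lgals9 was far above that of Lgals5 in every rat. Of 231 positions aligned without gaps, in 3 blocks, 223 were identical (96.5%), and 32 further bases fell into gaps. The following stretch of 97 bases is shown because it holds the shared motif and 6 differences, in coordinates of GRCr8 on the minus strand, chr10:64355175-64355271 for Lgals5 and chr10:64428071-64428167 for Lgals9. Capitals mark the match to the interferon response core, which lies on the opposite strand, and in Lgals9 also the match to TGANTCA, and the motifs do not overlap.
Lgals5: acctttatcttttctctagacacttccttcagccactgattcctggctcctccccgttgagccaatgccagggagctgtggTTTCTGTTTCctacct
Lgals9: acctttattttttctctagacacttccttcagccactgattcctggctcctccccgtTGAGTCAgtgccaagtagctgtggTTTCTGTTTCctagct

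Of the called members, the windows of Lgals2 and Lgals3bp could be searched, and that of Lgals3bp held matches. The 59 bases before its start are shown for that reason, at chr10:104127849-104127907 of GRCr8 on the minus strand. Capitals mark the match to the interferon response core and, nearer to the start, the overlapping matches to TATAAA.
Lgals3bp: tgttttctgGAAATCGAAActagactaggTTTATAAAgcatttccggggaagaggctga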

How the data were processed

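The authors cleaned the reads with the FASTX-Toolkit and mapped them with TopHat2. They deposited FPKM from uniquely placed reads, per gene and with 2 decimals. The genome named by the authors is GRCh38, whereas the gene identifiers are Ensembl's for the rat. The annotation release, and the use of strand for the FPKM of genes, are not given in the sources used here. For lncRNAs, long noncoding RNAs, the paper states that antisense reads were left out. Of the table of 19616 genes, 2 further columns of values were not used, because no sample carries their names. The share of identical values above 0 between any pair of rats lay between 0.99% and 2.87%.

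Since FPKM are not counts, groups were compared with limma 3.58.1 (R 4.3.3, prior variance following the mean) on log2(FPKM + 0.1), over 14864 genes whose mean reached 0.1 FPKM. All adjusted p-values are limma's with Benjamini-Hochberg adjustment over these genes. Errors are SD over 3 rats or limma's standard errors, with no counting interval because depth was used only relative to other rats. Python 3.11.15 with numpy 2.4.6, pandas 2.3.3 and matplotlib 3.10.9 made the remaining values. The procedure was tested on simulated data. These had normal errors on the log2 scale and no shift shared by all genes, and low genes were left unchanged. The test therefore does not cover the shift between the groups seen here, or changes of low genes. The members and lists were chosen with earlier results of these data known. Named were all members, in each partner list up to 2 genes called higher and up to 2 called lower with the lowest adjusted p, St6gal1 and Mgat5, the highest gene of each marker list, and the 3 genes most like Lgals1, Lgals3 and Lgals9, of which 1 is not reported here. Exceptions are stated where they occur or follow from a short list or a filter. The alternatives were pseudocounts of 1 and 0.01, no filter, a mean of at least 1 FPKM, median scaling, quantile normalization, a prior without trend, a robust prior, a 2-fold limit and leaving out each rat. Summing Lgals9 with Lgals5, and scaling to the sum without the 10 highest genes of any rat, were chosen after seeing the data.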

Additional observations from a re-analysis of the deposited data

How the results depend on the processing

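The counts of 4 members called higher and 0 called lower stayed the same under all 17 alternatives, and so did the direction and the call of Lgals1, Lgals2, Lgals3, Lgals3bp and Lgalsl under all 16 that refit the values. The changed filters and priors, and summing Lgals9 with Lgals5, leave the fold changes of these genes as they are. Their direction could therefore not turn in those fits. With a mean of at least 1 FPKM, Lgals2 passed the filter only through the FL rats. Log2 fold changes ranged from 1.71 to 2.42 for Lgals1 (adjusted p 0.00547 to 0.0427), 1.30 to 3.13 for Lgals2, 2.13 to 2.81 for Lgals3 (0.00345 to 0.0291), 1.26 to 1.61 for Lgals3bp (0.00291 to 0.0234) and -1.54 to -0.99 for Lgalsl (0.002 to 0.0234). The direction turned for Lgals5 without FL12 (0.091, where leaving out a rat gave -1.10 to 0.091) and for Lgals8 after median scaling (-0.067), and the cause was not tested. Among the partner genes named, it turned for St6gal1 (0.10 without FL5 and 0.0058 without FL12).

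Counts of genes called moved more. Of all genes, 1301 were higher and 533 lower after median scaling, 778 and 536 after quantile normalization, and 1381 and 139 with a 2-fold limit. Leaving out a rat gave 898 to 3190 higher and 118 to 337 lower, where fewer samples enter the fit. Partner genes called higher were 10 after quantile normalization and 9 to 24 without a rat. Those called lower were 1 with a prior without trend, 0 with a 2-fold limit and 0 to 2 without a rat. Lgals5 gave no value with a mean of at least 1 FPKM. The paper states that the rats were divided into the groups at random, and no pairing is named, so no paired analysis was made.

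The 3 rats per group limit the precision, as the wide interval of Lgals5 shows, and values near 0.1 FPKM rest on few reads.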
